A study of Mus musculus with 9 samples.

Results

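Transthyretin (Ttr) and 9 other genes that mark the choroid plexus were followed in mouse hippocampus by two-colour oligonucleotide arrays. The 10 genes were Ttr, Kl, Folr1, Prlr, Otx2, Clic6, Aqp1, Slc4a5, Enpp2 and Cldn2. Ttr was chosen because its ratio at 12 months was already known from an earlier look at these arrays to be low in 3xTG, and the other 9 were chosen as choroid plexus markers. Every probe annotated to these genes was kept, whether or not it had missing values. In all, 9 of the 10 genes had a probe, and these 10 probes (2 of them for Cldn2) stand among 29922 probes and 16637 named genes. No probe in the platform table used here was annotated to Prlr, the prolactin receptor, so it was not analysed here.

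The choroid plexus is a folded epithelium in the brain's ventricles that secretes cerebrospinal fluid, and the plexus of the lateral ventricle lies against the hippocampus. Its epithelial cells make transthyretin in large amounts and release it into the fluid, where it carries thyroid hormone and, bound to retinol-binding protein, retinol. Transthyretin is also known to bind amyloid-beta peptide.

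The mice were female and each gave RNA from a single hippocampus. There were 2 mice in each of 4 groups. The 3xTG mice, of the strain given as B6;129Psen1tm1Mpm Tg (APPSwe,tauP201L) 1Lfa, carry mutant human APP and tau transgenes with a mutated presenilin gene, and were 12 or 3 months old. The promoter of the transgenes is not named in the labels. The WT mice, of strain 129SV with C57BL6, were 12 or 3 months old. The strain given differs between 3xTG and WT, so genotype and strain background cannot be told apart. Each of 3 comparisons had 3 arrays: 3xTG over WT at 12 months, 3xTG over WT at 3 months, and WT at 12 over 3 months. At 12 months, arrays 1 and 2 set 3xTG mouse 4 against WT mice 24 and 25, and array 3 set 3xTG mouse 7 against WT mouse 24. At 3 months, array 1 set 3xTG mouse 23 against WT mouse 15, and arrays 2 and 3 set 3xTG mouse 22 against WT mice 15 and 16. For WT ageing, array 1 set mouse 25 against mouse 15, array 2 mouse 24 against mouse 16, and array 3 mouse 25 against mouse 16. WT ageing therefore shares its 12-month mice with one genotype comparison and its 3-month mice with the other. Arrays that share a mouse are not independent. The extraction text of every array describes a WT mouse of 12 months against a WT mouse of 3 months, which goes against the titles, sources and genotype tags of the 3xTG arrays. The groups were taken from those titles, sources and tags.

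Values are the deposited log2 ratios, read as test over reference and given relative to the median of each array, so that 0 is the middle of that array's probes. Between 13683 and 16191 probes were listed per array, which is 45.7 to 54.1% of them. No listed value lay within 0.5 of 0 before centring, so small ratios are among the missing values. Array medians before centring ran from -1.71 to 2.34. Transcripts of ribosomal, respiratory, glycolytic and proteasome genes, 72 to 109 probes per array, had median ratios of 2.07, 2.09 and 1.20 relative to the array median at 12 months, of -0.16, 1.62 and 0.82 at 3 months, and of -0.42, -0.50 and -0.95 for WT ageing. The zero of the scale therefore depends on the transcripts that set it. Signal over background is unknown, ratios give no absolute level, and the level of choroid plexus transcripts in any one hippocampus could not be checked. Likewise, in whole hippocampus fewer cells of a type and less RNA per cell cannot be told apart.

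Ttr is represented by 1 probe, listed on 7 of the 9 arrays. At 12 months Ttr lay at -3.57, -3.49 and -3.73 in 3xTG relative to WT on the 3 arrays. All arrays were low, in either dye orientation and with either 3xTG mouse as the titles and sources name them. Array 3 alone had the second 3xTG mouse and alone had 3xTG in Cy5, so mouse and dye changed together. The mean of -3.60 ± 0.12 (SD, n = 3 arrays) corresponds to a level 12.1-fold lower in 3xTG hippocampus on this scale. Since Ttr was chosen for this value, it is a description and has no test. The labels' raw file names carry a V number whose meaning is not stated, and it was V66 for array 1, V90 for array 2 and V91 for array 3.

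**Figure D1:**
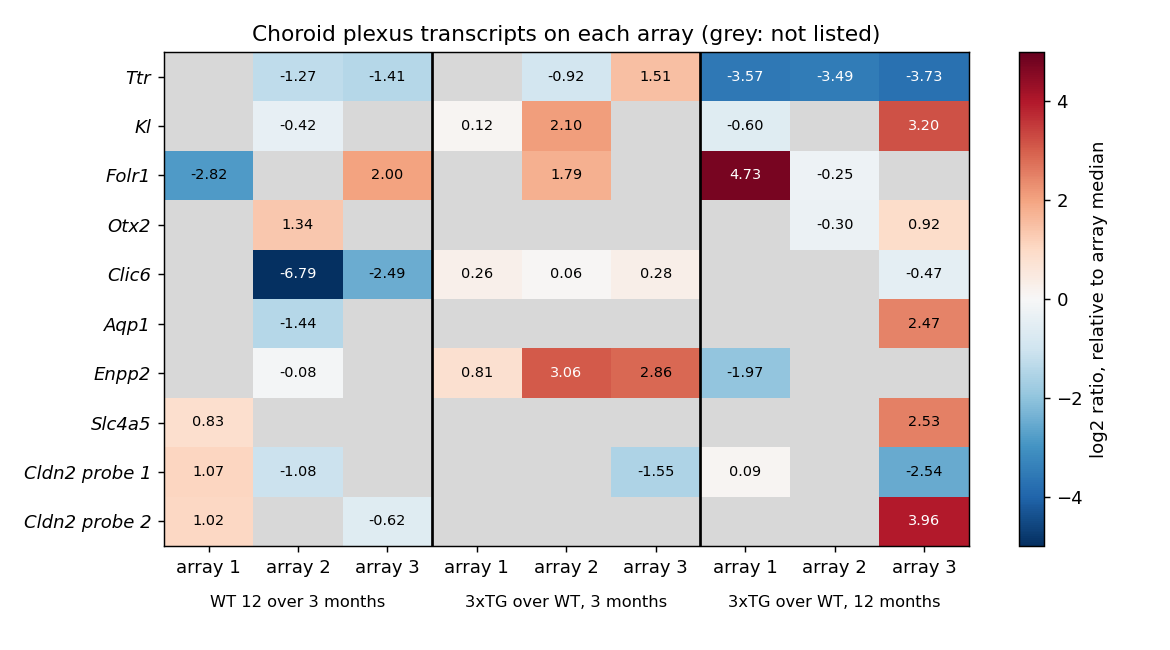
Log2 ratio of each choroid plexus probe (rows) on each of the 9 arrays (columns), relative to the array median, with the value printed in each cell and grey where the probe was not listed. Ttr is between -3.73 and -3.49 on all 3 arrays at 12 months, and no other probe shown is below -2.54 there.

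Among the 3836 probes listed on all 3 arrays at 12 months, 16 (0.417%) had a mean as low as that of Ttr or lower, Ttr included. On this scale 71 probes (1.85%) had an SD as small as that of Ttr or smaller, and the median SD was 1.27. As deposited the SD of Ttr was 0.60, with 22.5% of probes at or below it, and relative to the abundant transcripts 0.39, with 5.87%. Only 5 probes (0.13%) had all 3 values at or below -3.49. These were Slc24a5, a pigment cell ion exchanger (mean -6.06), Rpgrip1, a photoreceptor ciliary protein (-5.39), Sbf1, a myotubularin-related protein (-4.58), a probe with no gene name (-4.46) and Ttr itself. On the 3 arrays, 3.94, 4.71 and 4.16% of all listed probes were at or below Ttr. These places describe the value that Ttr was chosen on and were not tested.

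**Figure D2:**
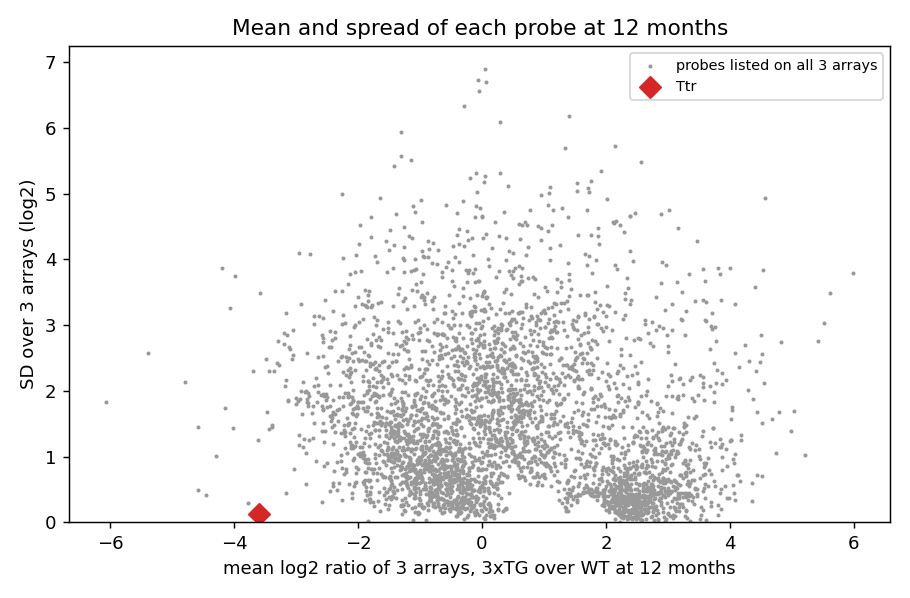
Mean log2 ratio (horizontal axis) against SD over 3 arrays (vertical axis, log2) for the 3836 probes listed on every 12-month array, 3xTG over WT. The Ttr point, at a mean of -3.60 and an SD of 0.12, sits at the lower left, where few probes lie.

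At 3 months Ttr was not listed on array 1 and lay at -0.92 on array 2 and 1.51 on array 3. Both arrays used 3xTG mouse 22, and they stood on opposite sides of the array median. The WT mouse and the dye orientation both changed between these arrays, so the 2.43 between them cannot be assigned to either. The fit gave 0.30 ± 1.08 (SE) and did not pass the test (limma adjusted p = 0.932). Without array 3 the fitted value was -1.01.

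For WT ageing Ttr was not listed on array 1 and lay at -1.27 and -1.41 on arrays 2 and 3. Both values were below the array median, with 22.4 and 19.8% of probes at or below them. The fitted value was -1.14 ± 1.29 (SE) and did not pass the test (limma adjusted p = 0.848). The direction depended on the scale: as deposited, before centring, the same 2 values were 1.07 and 0.55, and relative to the abundant transcripts they were -0.77 and -0.46.

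**Figure D3:**
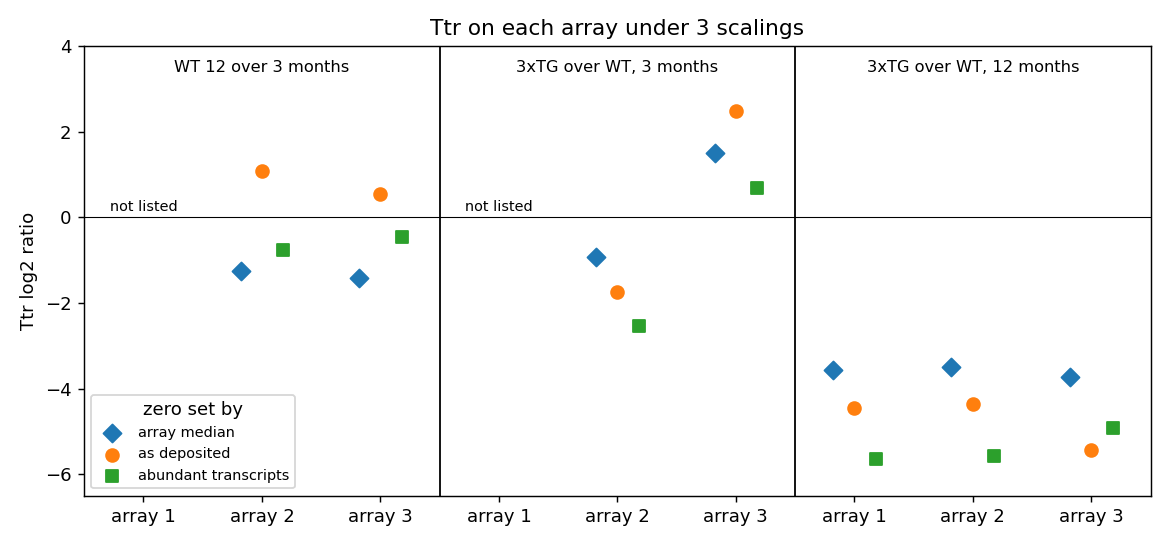
Ttr log2 ratio (vertical axis) on each array (horizontal axis) with the zero set by the array median (diamonds), left as deposited (circles) or set by abundant transcripts (squares). The 12-month values lie between -5.64 and -3.49 under every scaling, while those for WT ageing lie on either side of 0.

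The low 12-month ratio of Ttr did not depend on the scale in this way. As deposited, it was -4.44, -4.37 and -5.44, and relative to the abundant transcripts it was -5.64, -5.58 and -4.93. The 3-month values as deposited were -1.76 and 2.48, and relative to the abundant transcripts -2.54 and 0.69. In the joint fit over all arrays, with a dye term and shared mice in the covariance, 3xTG over WT at 12 months came to -3.50 ± 0.91 (SE, 3 residual degrees of freedom). Without 12-month array 3, the only array of this comparison with 3xTG in Cy5, the fitted value was -2.32. The arrays left lay at -3.57 and -3.49, both with 3xTG in Cy3. The dye term for Ttr in that fit rested on 3-month arrays 2 and 3, whose gap cannot be assigned to dye. The fitted -2.32 is therefore not a measure of how much array 3 contributed. Read as Cy5 over Cy3 instead of test over reference, the 3 arrays would average 1.11 ± 4.19 (SD, n = 3 arrays), with array 3 opposite in sign to arrays 1 and 2, and the joint fit would give 0.03. The direction therefore rests on the reading of the labels. With the labels read in this way, pairs of arrays from the same comparison with exchanged dyes were positively correlated (r from 0.20 to 0.31). Under the Cy5 over Cy3 reading, the same pairs would be negatively correlated. Which reading holds was not tested.

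The genotype ratio of Ttr at 12 months minus that at 3 months was -3.80 ± 1.41 (SE). It contains the value that Ttr was chosen on and has no test. Setting the 4 groups on 1 scale with WT at 3 months as 0, the fitted Ttr level was 0.30 in 3xTG at 3 months, 0 in WT at 3 months, -1.14 in WT at 12 months and -4.64 ± 1.43 (SE) in 3xTG at 12 months. The fitted steps were 0.30 ± 1.08 for 3xTG over WT at 3 months and -1.14 ± 1.29 for WT ageing (SE). The step to 3xTG at 12 months was -3.50, the value Ttr was chosen on, so the steps are a description and were not tested against each other. The order of the first 3 groups depended on the scale. Fitted WT ageing was 0.92 without centring and 0.06 on abundant transcripts, and 3xTG over WT at 3 months was -0.93 on abundant transcripts. Through the WT mice, 3xTG at 12 over 3 months came to -4.94 ± 1.62 (SE).

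Across all probes, limma called 0 of 3644 fitted probes (0%) in each of the 3 comparisons and in the difference between ages, at an adjusted p under 0.05. At an unadjusted p under 0.05 there were 607 probes at 12 months, 492 at 3 months, 431 for WT ageing and 253 for the difference. With arrays treated as independent, 0, 56, 66 and 0 were called in the same order, and among the 142 probes listed on all 9 arrays, which do not include Ttr, 74, 60, 21 and 0. Ttr was the only one of the 10 probes listed often enough to enter this fit.

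Individual mice could be compared for Ttr where 2 arrays shared the other mouse. WT mouse 24 minus WT mouse 25 was 0.14 through the ageing arrays and 0.08 through the 12-month genotype arrays. The 3xTG mouse 7 minus mouse 4 was -0.16 through WT mouse 24, on arrays of opposite dye. These gaps moved with the scaling: as deposited they were 0.52, 0.08 and -1.0, and relative to the abundant transcripts -0.30, 0.06 and 0.71.

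Kl encodes klotho, a membrane and secreted co-receptor for fibroblast growth factor 23. Its ratio in 3xTG relative to WT at 12 months was -0.60 on array 1 and 3.20 on array 3, and it was not listed on array 2. At 3 months it was 0.12 on array 1 and 2.10 on array 2. In WT ageing only array 2 listed it, at -0.42. The lowest of its values was -0.60, and its 2 values at 12 months differed by 3.80, which is the gap between 3xTG mice 7 and 4 and also between opposite dyes.

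Folr1, a folate receptor that carries folate into the fluid, had a ratio at 12 months of 4.73 on array 1 and -0.25 on array 2. Both used 3xTG mouse 4, and WT mouse 24 minus WT mouse 25 was therefore -4.98 with the dye unchanged. Only array 2 listed Folr1 at 3 months, at 1.79. For WT ageing it lay at -2.82 on array 1 and 2.00 on array 3. Folr1 thus took both signs at 12 months and in WT ageing.

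Otx2 encodes a homeodomain transcription factor that choroid plexus epithelium needs for its identity. It was listed at -0.30 and 0.92 on arrays 2 and 3 at 12 months and at 1.34 on array 2 for WT ageing. At 3 months no array listed it. None of its values was below -0.30.

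Clic6, an intracellular chloride channel protein, had a ratio of -0.47 at 12 months, on array 3 alone. At 3 months it was listed on all arrays, at 0.26, 0.06 and 0.28, with both 3xTG mice and both WT mice. In WT ageing it lay at -6.79 on array 2 and -2.49 on array 3. The value on array 2 was the lowest of any member on any array, and the 4.30 between the arrays is the gap between WT mice 25 and 24 at the same dye. Without the filter on missing values the fit gave -4.55 ± 2.45 (SE, limma adjusted p = 0.858), so Clic6 did not pass the test.

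Aqp1, the water channel of the apical membrane, was listed at 2.47 on array 3 at 12 months and at -1.44 on array 2 for WT ageing. Slc4a5, a sodium bicarbonate cotransporter, was listed at 2.53 on array 3 at 12 months and at 0.83 on array 1 for WT ageing. Neither was listed on a 3-month array. Each of these transport genes therefore has 1 value at 12 months, 1 for WT ageing and no replicate check.

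Enpp2 encodes autotaxin, a secreted enzyme that makes lysophosphatidic acid. It was listed on array 1 alone at 12 months, at -1.97. Its 3-month values were 0.81, 3.06 and 2.86, all above the array median, and its WT ageing value was -0.08. The 2 arrays with 3xTG mouse 22 were higher than the array with 3xTG mouse 23, by 2.24 where the WT mouse and dye were shared. The unfiltered fit gave 2.11 ± 1.28 (SE) at 3 months, which did not pass (limma adjusted p = 0.782).

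Cldn2, a claudin of the leaky tight junctions of this epithelium, has 2 probes. The first lay at 0.09 and -2.54 on arrays 1 and 3 at 12 months, at -1.55 on array 3 at 3 months and at 1.07 and -1.08 on arrays 1 and 2 for WT ageing. The second lay at 3.96 on array 3 at 12 months and at 1.02 and -0.62 on arrays 1 and 3 for WT ageing. On the 1 array at 12 months that listed both, the probes disagreed in sign.

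**Figure D4:**
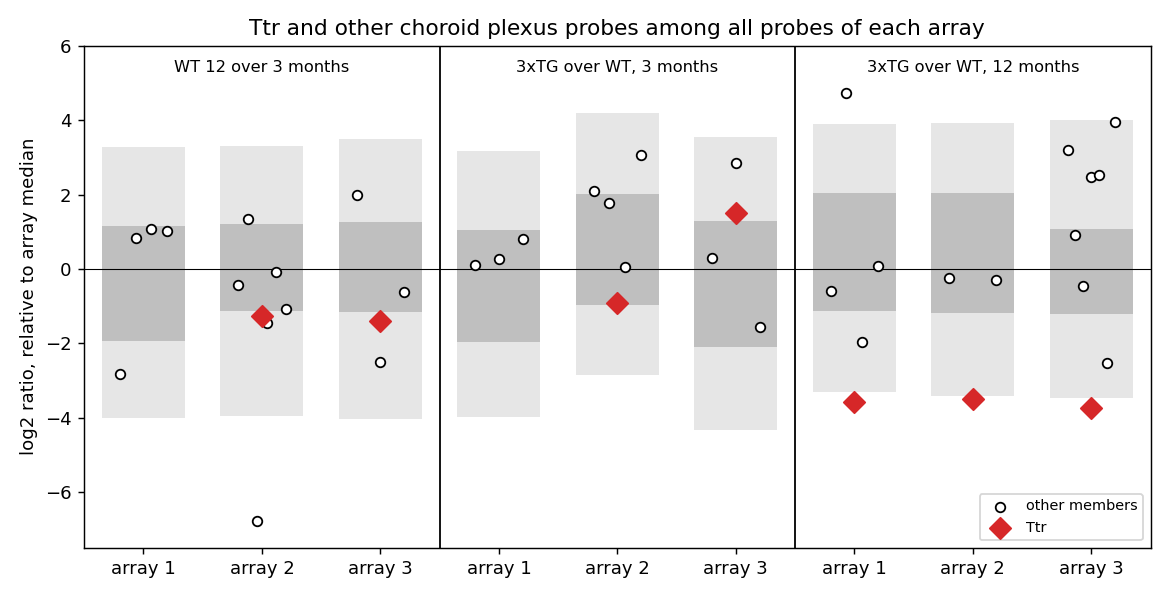
Log2 ratio relative to the array median (vertical axis) of Ttr (red diamonds) and of the other choroid plexus probes (open circles) on each array (horizontal axis). Dark and light grey boxes span the middle 50 and 90% of all listed probes. On the 12-month arrays Ttr is below every other probe shown.

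Taking the members together, 43 of 90 possible values were listed (47.8%), against 48.6% over all probes. On the 12-month arrays the other members lay between -1.97 and 4.73 on array 1, between -0.30 and -0.25 on array 2, and between -2.54 and 3.96 on array 3. Their medians were -0.25, -0.27 and 2.47, and Ttr minus this median was -3.32, -3.22 and -6.21 on the same arrays. This gap is unchanged by any centring, and 0 of the 4, 2 and 7 other values were at or below Ttr. Because Ttr was chosen for its low value at 12 months, this gap and count are a description and were not tested. At 3 months the gap was -2.86 on array 2 and 1.23 on array 3. For WT ageing it was -0.52 and -0.79 on arrays 2 and 3.

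Of the values of the other members, 7 of 13 were above the array median at 12 months, 9 of 10 at 3 months and 5 of 13 for WT ageing. As deposited, 5 of 13, 8 of 10 and 10 of 13 were above 0, where 34.2, 53.3 and 81.3% of all values were. Relative to the abundant transcripts, 5 of 13, 7 of 10 and 8 of 13 were above 0, where 23.4, 39.5 and 64.6% of all values were. The median of the other members at 12 months was 1.30, and without array 3 it was -0.30.

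A probe that took 1 sign on every array that listed it, with at least 2 arrays, was counted in each direction. At 12 months 1 of 5 such member probes was below the median throughout, which was Ttr, and 0 were above, where 28.3 and 29.9% of all probes were. The rule that chose Ttr used this contrast, so nothing is read from that count. At 3 months 0 of 4 were below and 3 (Clic6, Enpp2 and Kl) were above, where 27.6 and 28.7% of all probes were. For WT ageing 2 of 5 (Clic6 and Ttr) were below and 0 were above, where 26.1 and 25.1% of all probes were. No count over 4 or 5 probes was tested.

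Of 33 further choroid plexus genes, 29 had a probe. At 12 months 11 of 26 listed genes were above the array median with a median of -0.48, at 3 months 7 of 24 with a median of -0.57, and for WT ageing 11 of 25 with a median of -0.92. Over all named genes 55.5, 48.9 and 48.8% were above, with medians of 0.22, -0.04 and -0.05. Atp1b1, a sodium pump subunit that neurons also express, averaged 1.65 at 12 months and 1.35 at 3 months. For WT ageing it averaged -1.68, a mean set by 1 array, with array values from -7.502 to 0.58. Slc4a2, an anion exchanger, averaged -0.48, -1.69 and -4.02, the last on 1 array. Cox8b, a cytochrome oxidase subunit, averaged 1.23 (2.91 and -0.44), -0.15 (0.29, 1.69 and -2.42) and -4.46, the last on 1 array. Ecrg4 and Kcne2, a potassium channel subunit, were listed as often as Cox8b and stand after it only by alphabet. Each was listed on 1 array at 12 months, Ecrg4 at -2.88 and Kcne2 at -1.74, and averaged 2.27 and 3.36 at 3 months. Also low at 12 months, on 1 array each, were Abca4, a retinoid transporter (-4.54), Sostdc1, a secreted inhibitor of BMP and Wnt signals (-2.66), and Trpv4, a cation channel (-2.40). Igfbp2, a secreted binding protein for insulin-like growth factors, lay between -2.03 and -0.25 on 3 arrays. Other genes of this list were high at 12 months: Wfdc2 at 2.94 and 4.08 on 2 arrays, and Car14 (1.64) and Lrp2 (1.52) on 1 array each. Col8a1 averaged 1.58 and Tmem72 0.86 on 3 arrays, each with values of both signs. Ecrg4, Kcne2, Abca4, Sostdc1, Trpv4, Igfbp2, Wfdc2, Car14, Lrp2, Col8a1 and Tmem72 were named after their values had been seen. Some further choroid plexus transcripts were thus below the array median at 12 months, as Ttr was, mostly on single arrays, and 11 of 26 were above the array median.

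Lists of markers of other cell types were counted beside these values. At 12 months ependymal genes were above the array median in 6 of 12 (median -0.33), meningeal and fibroblast genes in 8 of 9 (0.47), endothelial genes in 2 of 6 (-0.50), oligodendrocyte genes in 6 of 8 (1.11) and hippocampal neuron genes in 8 of 9 (2.29). At 3 months the counts were 8 of 11 (0.43), 5 of 10 (-0.04), 3 of 7 (-0.17), 7 of 9 (0.94) and 5 of 10 (0.14) in the same order. For WT ageing they were 4 of 10 (-0.25), 4 of 10 (-1.37), 2 of 8 (-2.27), 3 of 10 (-1.05) and 4 of 10 (-0.11). The part of these cell types, and of how much choroid plexus came with each hippocampus, in the Ttr values was not tested.

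**Figure D5:**
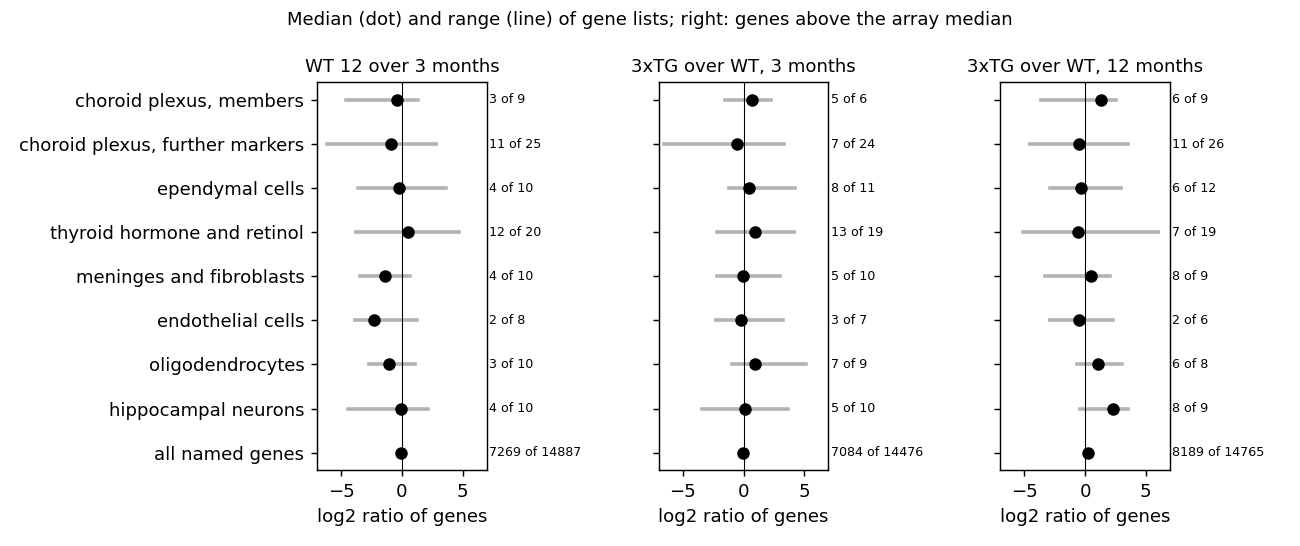
Median (dot) and range (line) of the log2 ratio of the genes in each list (rows), relative to the array median, for WT ageing and for 3xTG over WT at 3 and 12 months. The numbers at right count the genes above the array median among those listed. The further choroid plexus markers stand at a median of -0.48 at 12 months, and the listed members at 1.30.

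The genes named here are the 3 of each list that were listed on the most arrays, with ties taken by alphabet, and their mean ratios are in the order 12 months, 3 months and WT ageing. Where a gene has several probes, the value is the mean of the probes' means. Values from 1 array are marked. Several of the others average arrays of both signs, such as Foxj1 (-2.26 and 0.04) and Slc6a13 (1.88 and -0.29) at 12 months. Foxj1, the ciliary regulator of ependymal cells, averaged -1.11, -0.13 and 0.59. Dynlrb2 stood at -1.05 (1 array), 0.43 and -0.26, and Enkur at 1.46 (1 array), 0.09 and 0.51 (1 array). Slc6a13, a meningeal transporter, averaged 0.80, -0.15 and -3.30, Dcn (decorin) 0.91, 1.72 and 0.26, and Igf2 0.25, -0.43 and -2.61. Of the endothelial genes, Pecam1 averaged -0.86, -1.60 and 1.11. Esam stood at 2.31 (1 array), -1.75 and -2.75, and Cdh5 at -2.87, 3.28 (1 array) and -3.03 (1 array). Of the oligodendrocyte genes, Mbp averaged 3.07, 2.18 and -0.98, Opalin 1.35, -0.64 and 1.09, and Ugt8a 1.01, 1.25 and 0.83. Of the neuronal genes, Neurod2 averaged 2.41, -1.88 and -4.45, Bok 3.57, 0.63 and 0.41, and Neurod1 0.99, -0.36 and 2.14. Averaged over probes first, Neurod1 lay between -0.60 and 0.95 on the 12-month arrays and between -0.37 and 1.67 at 3 months, so its sign was not settled there. Among the genes left out by the alphabet, Rarres2, a secreted chemoattractant in the ependymal list, averaged 2.96 on 3 arrays at 12 months, and Mia of the same list -1.29.

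By mean absolute difference of log2 ratio over the 7 arrays that listed Ttr, the gene nearest to Ttr of 293 probes compared was Cd3g, a T-cell receptor subunit, at 1.05. The median difference over all compared probes was 3.47. Cd3g averaged -3.78 at 12 months, 1.37 at 3 months and 0.69 for WT ageing. Next came Lnpep (1.53), Pam (1.58), Llph (1.58) and Mfap2 (1.60), with 12-month means of -2.003, -1.82, -0.75 and -1.45. No other choroid plexus member was listed on all 7 of these arrays, so none could be compared.

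Genes that handle the hormone and the vitamin that transthyretin carries were counted as a list of 22, of which 20 had a probe. At 12 months 7 of 19 were above the array median (median -0.60), at 3 months 13 of 19 (0.93), and for WT ageing 12 of 20 (0.51). Dio2, the deiodinase that activates thyroid hormone, lay between 2.10 and 2.36 at 12 months on 3 arrays, between -1.68 and -1.08 at 3 months on 3 arrays, and between -5.94 and -2.02 for WT ageing. Crym, a thyroid hormone binding protein, averaged 2.40 at 12 months on 2 arrays, 1.90 at 3 months and -1.03 for WT ageing. Thra, a thyroid hormone receptor, averaged 5.99 at 12 months with values from 2.74 to 10.16, 1.64 at 3 months and 0.87 for WT ageing. Rbp4, the plasma retinol-binding protein that travels with transthyretin, was listed at 12 months on 2 arrays, at -2.84 and -1.26. At 3 months it was listed on 1 array, at 4.15, and for WT ageing on 2 arrays, at 1.64 and 0.45. It was named for its partnership with Ttr, after its values had been seen.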

How the data were processed

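The deposited table holds log2 ratios of test over reference by the authors for 29922 probes on 9 arrays. How they were scanned, background-corrected and normalized, their log base and their direction: not given in the sources used here. The base was read from the values and the direction from the labels. Probe names came from the platform annotation: 21020 probes had 1 symbol and 8902 had none, and 2728 of 16675 symbols were updated through RefSeq synonyms. Arrays were centred on their medians.

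For tests, probes listed on at least 2 of 3 arrays in each comparison were fitted by generalised least squares in limma 3.58.1 (R 4.3.3), with a dye term and a covariance for shared mice (variance ratio 1.02), eBayes and Benjamini-Hochberg adjustment at 0.05. Of 3696 probes, 3644 could be fitted. The script was tested on simulated data. Nothing says that the 2 mice of a group came from separate litters. The members, gene lists and tests were chosen with earlier results of these data known. Named genes are the members, the 3 genes of each list on the most arrays (ties by alphabet), and the 5 nearest to Ttr. Others, such as the probes as low as Ttr, Rbp4 and Igfbp2, were named after their values were seen. Arrays with the same experiment number did not deviate together (correlations -0.06 to 0.17), so the numbers do not pair them. Alternatives were the centring, dye term, covariance, V number, filter, ratio direction, a replicate block and each array left out.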

Additional observations from a re-analysis of the deposited data

Results flagged for a closer look

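The members were taken with 1 or more arrays at each age, and the 3 most listed genes of each list with 2 or more. By this rule 5 genes had 1 sign in 3xTG over WT at 12 months and the opposite sign at 3 months. Each did so on every array that listed it. The mean at 12 minus 3 months was 3.63 for Dio2, 4.30 for Neurod2 and 0.68 for Igf2, and among the choroid plexus members -4.22 for Enpp2 and -0.67 for Clic6, both listed on 1 array at 12 months. Other genes of the lists also had opposite signs, but with 1 array at 1 or both ages, which is outside this rule. Among them were Esam, Cdh5, Ecrg4, Kcne2, Rbp4, Wfdc2, Car14, Ogn, Dio3, Cdr2 and Lum, and this is not the full set. Thrb, a thyroid hormone receptor not among the 3 most listed of its list, also differed in sign. It lay at -2.79 and -0.74 at 12 months and at 0.18 and 5.20 at 3 months. Of the list genes with 2 or more arrays at each age, 4 of 33 did so (12.1%), against 11.4% of 6807 probes, so the share in the lists is close to that over all probes. Limma's test of this difference called none of the 3644 probes. Its smallest adjusted p was 0.712, and before adjustment 253 probes had a p under 0.05. Dio2 kept opposite signs as deposited (0.65 to 1.28 at 12 months, -1.91 to -0.69 at 3 months) and relative to abundant transcripts (0.04 to 1.16 and -2.70 to -1.37). Neurod2 did so as deposited, but relative to abundant transcripts its 12-month values ran from -0.47 to 1.73. Igf2, listed on 2 arrays at each age, was below 0 at 12 months as deposited (-1.56 and -0.52) and relative to abundant transcripts. Clic6 at 3 months took both signs as deposited and relative to abundant transcripts, while Enpp2 kept its signs on both scales.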

How the results depend on the processing

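Where a result turned or moved, the cause was not tested. Without centring, Ttr was 0.92 for WT ageing and -4.64 for 3xTG over WT at 12 months. Centred on abundant transcripts, Ttr was 0.057 for WT ageing, -0.93 at 3 months and -5.15 at 12 months. With a term for the V number of the raw file names (its meaning is not stated) Ttr at 12 months was -3.33, and relative to the other members it was -4.25, and -0.82 at 3 months. Read as Cy5 over Cy3, Ttr was 0.030 at 12 months and -1.19 for the genotype effect at 12 minus 3 months. With the experiment number as a replicate block that difference was -3.91, and the block changed no call, with 0 probes called. Leaving out arrays in turn gave Ttr -1.43 to -0.12 for WT ageing and -1.01 to 1.59 at 3 months (-1.01 without array 3). It gave -3.63 to -2.32 at 12 months and -5.21 to -2.61 for the difference. The -0.12 and -2.32 came without 12-month array 3, where the dye term for Ttr rested on 3-month arrays alone. The median of the other members for WT ageing was 1.89 without centring, 0.42 on abundant transcripts, 0.82 as Cy5 over Cy3 and 0.20 without array 2, with a leave-one-out range of -0.52 to 0.20. At 3 months it was -1.11 as Cy5 over Cy3 and 0.17 on abundant transcripts (1.11 otherwise), and 0.19 to 1.79 with arrays left out. At 12 months it was 0.011 without centring (1.30 otherwise), -0.33 on abundant transcripts and -0.30 without array 3, within -0.30 to 1.39. Arrays treated as independent gave 66 called probes for WT ageing and 56 at 3 months. The 142 probes listed on all 9 arrays, Ttr not among them, gave 21, 60 and 74 for WT ageing, 3 and 12 months. That listing selects probes by the size of their ratios, so nothing is read from these counts. With any 1 array left out, 0 probes were called. The other alternatives changed no direction and no call among the results named here, though values moved. The adjusted p of Ttr over these alternatives ranged from 0.558 to 1 for WT ageing and from 0.644 to 1 at 3 months. Ttr has 1 probe, so averaging its probes gave nothing new, and the dye, covariance and V number terms do not apply to medians of members. The number of arrays limits the precision.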
